A study of Mus musculus with 13 samples.

Results

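Alveolar macrophages of the mouse lung were examined as 1767 cells of a droplet single-cell RNA sequencing matrix. The cells were chosen by measured values, from 4 of the 7 libraries that the barcodes number, namely libraries 1, 2, 3 and 7. Of the 24344 barcodes of these libraries, 20856 had at most 10% of their UMIs (unique molecular identifiers, each standing for 1 captured RNA molecule) in mitochondrial genes, and the 1767 cells made up 8.47% of them (exact 95% binomial interval 8.10 to 8.86%). A selected cell had at least 5 UMIs summed over Fabp1, Ear1, Krt79, Marco, Plet1 and Car4, fewer than 5 over a set of 3 genes that includes Mmp12 and Gpnmb, fewer than 5 over C1qa, C1qb and C1qc, and 0 of Cdh5. The values of these 13 genes are therefore given as a description of the choice and not as results. By the same limits, library 4 held 0 such cells, library 5 held 1 and library 6 held 3.

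The study modelled emphysema in C57BL/6 mice with porcine pancreatic elastase (PPE) and asked what eosinophils contribute to it. Its single-cell samples were lungs labelled Asthma, Control, PPE-emphysema and PPE-recovery, with 1 mouse per group. Asthma mice were sensitized and then challenged with ovalbumin. PPE-emphysema mice were instilled with elastase through the trachea once a week for 4 weeks and killed 3 days after the final dose, Control mice followed the same schedule, and PPE-recovery mice were instilled once and left for weeks before death. The Asthma mice were described as wild type, and no allele or transgene was given for the single-cell groups. The barcodes carry library numbers and no group names, so no library could be tied to a condition. All cells count here as 1 pooled sample, and values are given by library number. Intervals cover counting error only, no comparison between libraries has a replicate, and no test was run. The other 9 samples (3 each of Acute injury, Con and emphysema) were not analysed here.

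Alveolar macrophages live on the air side of the alveolus, where they clear surfactant, inhaled particles and dying cells. They settle there around birth under the influence of GM-CSF and TGF-beta, which act through the nuclear receptor PPAR-gamma, and they then renew themselves largely in place. Mouse alveolar macrophages carry the integrin CD11c (Itgax) and the lectin SiglecF (Siglecf) together, and eosinophils carry SiglecF with little CD11c. Macrophages recruited after injury can take on the same markers while expressing genes such as Mmp12 and Gpnmb, whereas interstitial macrophages express the complement C1q genes.

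Selected cells were least frequent in library 1, where they numbered 242 of 4800 cells (5.04%, 4.44 to 5.70%). Library 2 held 565 of 7626 cells (7.41%, 6.83 to 8.02%), and library 7 held 251 of 3301 cells (7.60%, 6.72 to 8.56%). Library 3 stood above the others with 709 of 5129 cells (13.8%, 12.9 to 14.8%). This order was different before the limit on the set with Mmp12 and Gpnmb, as given below. The median depth was 11410.5 UMIs per cell in library 1, 13119 in library 2, 13347 in library 3 and 16554 in library 7, with individual cells between 555 and 112823 UMIs. When cells were thinned at random to 1500 UMIs before the choice, 19125 cells were kept, fewer than without thinning. Of these, 7.06, 6.08, 11.8 and 5.77% were selected in libraries 1, 2, 3 and 7. Library 3 remained the highest, whereas library 1 moved from the lowest place to the second. The shares with and without thinning are over different cells, and the part of the left-out cells in this move was not tested. Barcode sequences present in more than 1 library numbered 153, and 18 selected cells carried such a sequence, but no selected cell shared one with another. Scrublet, a caller of droplets that hold more than 1 cell, marked 8, 34, 24 and 6 selected cells in libraries 1, 2, 3 and 7.

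The name of the cells was checked with 8 alveolar macrophage genes outside the choice, namely Chil3, Ear2, Siglecf, Itgax, Pparg, Lpl, Atp6v0d2 and Cd9. Their summed share per cell fell into 2 separate humps, and 1585 cells lay at or above 50 UMIs per 10000. The remaining 182 cells (10.3%) lay below it, 46 in library 1, 50 in library 2, 37 in library 3 and 49 in library 7. In 171 of the 182, Plet1, which airway epithelium also uses, had the most UMIs of the 6 markers. Of the 182 cells, 121 had at least 5 UMIs over the epithelial genes Epcam, Krt8, Cdh1, Foxj1 and Ager, 73 over a list of 6 dendritic cell genes, 24 of both and 12 of neither. Scgb1a1, the secreted protein of club cells, reached 93130 CPM (UMIs per 1000000 UMIs of the cells summed) in the 182 cells. Genes of ciliated cells followed it, with Sec14l3 at 1267 CPM and Ccdc153 at 825 CPM, as did the dendritic cell chemokine Ccl17 at 982 CPM. The data thus went against the name for these 182 cells, and the values below are from the 1585 macrophage members unless all 1767 cells are named. The macrophage members numbered 196, 515, 672 and 202 in libraries 1, 2, 3 and 7, which was 4.08, 6.75, 13.1 and 6.12% of the cells kept.

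**Figure D1:**
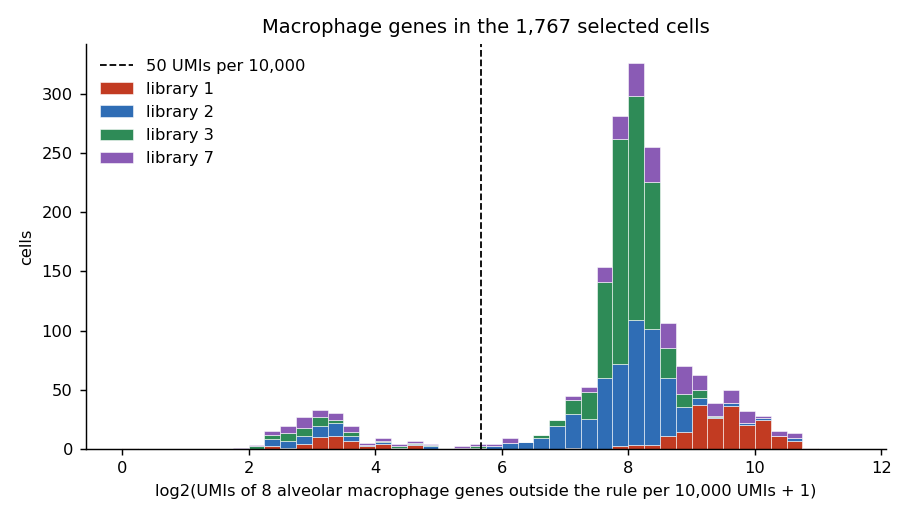
Histogram of the 1767 selected cells by the summed UMIs of 8 alveolar macrophage genes outside the choice, on a log2 scale per 10000 UMIs plus 1, coloured by library. The dashed line marks 50 per 10000: 182 cells lie to its left and 1585 to its right, and the cells of library 1 sit at the upper end of the right hump.

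The limit on the set with Mmp12 and Gpnmb removed very different parts of the marker-positive cells from each library. Mmp12 is the macrophage elastase, and Gpnmb a glycoprotein of lysosome-rich macrophages. Among cells with at least 5 marker UMIs that passed the C1q and Cdh5 limits, the 3 genes removed 410 of 652 cells (62.9%) in library 1 and 556 of 1121 (49.6%) in library 2. They removed 114 of 823 (13.9%) in library 3 and 376 of 627 (60.0%) in library 7. Library 3 was therefore the library in which the largest share of these cells stayed in the choice. Before this limit, such cells numbered 652 of the 4800 cells kept in library 1 and 1121 of 7626 in library 2. They numbered 823 of 5129 in library 3 and 627 of 3301 in library 7. Library 7 then had the largest share, so the lead of library 3 among the selected cells depended on this limit. The leading gene differed as well: Mmp12 held the most UMIs of the 3 in 381 of the 410 cells removed from library 1, and Gpnmb in 504 of the 556 removed from library 2. In library 7, Gpnmb led in 263 cells and Mmp12 in 61. Cells on either side of this limit resembled each other in the 8 macrophage genes: the 193 members with 4 UMIs of the 3 genes had a median of 310 per 10000, and the 142 excluded cells with 5 UMIs had 304. At the marker limit, 33 of the 60 cells with 5 marker UMIs carried the macrophage genes, against 35 of the 73 cells with 4.

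**Figure D2:**
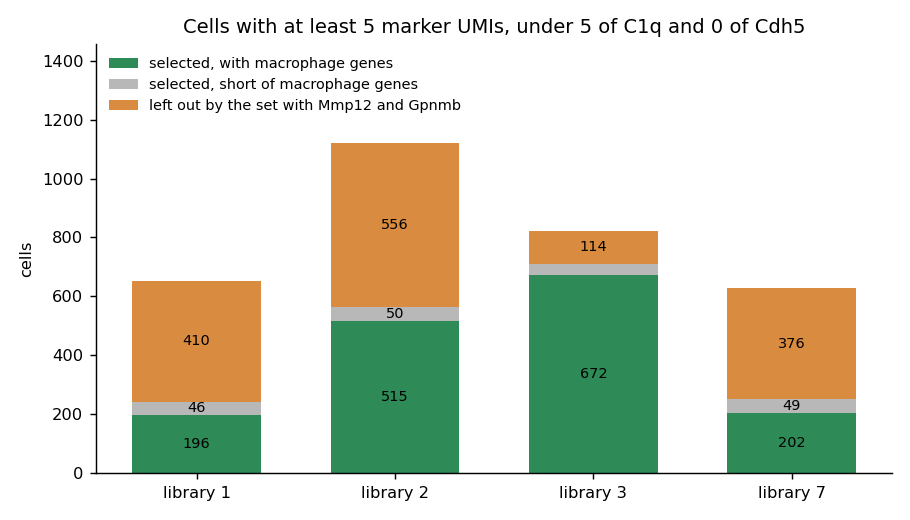
Stacked bars of cells with at least 5 UMIs of the 6 marker genes, fewer than 5 of the C1q genes and 0 of Cdh5, by library. Green cells were selected and carried macrophage genes, grey cells were selected and fell short of them, and orange cells were left out by the set with Mmp12 and Gpnmb, which took 410 cells in library 1 and 114 in library 3.

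Among the marker genes that made the choice, only Plet1 was nearly level across libraries, and Fabp1 and Krt79 differed most. Plet1, a surface protein of progenitor and myeloid cells, was found at 1152, 1429, 1338 and 1399 CPM in libraries 1, 2, 3 and 7. Fabp1, a cytosolic fatty acid carrier best known from liver, was found at 135, 69.7, 531 and 66.1 CPM, highest in library 3. It lies on chr6:71199827-71205023 on the plus strand (GRCm38, the mm10 build named in the submitters' processing notes, with GENCODE M21 gene models). As a description of a gene that made the choice, 45.8% of macrophage members in library 3 had a Fabp1 UMI after thinning to 1500 UMIs, against 15.6, 8.24 and 6.5% in libraries 1, 2 and 7. In B cells, which should lack the gene, 0.267% of thinned cells had one, and the median depths before thinning were 12989 UMIs in the members and 4406 in B cells. Krt79, a keratin, was high in libraries 1 and 3 (896 and 776 CPM) and low in libraries 2 and 7 (177 and 103 CPM). Car4, a carbonic anhydrase anchored in the membrane, was highest in library 1 at 1081 CPM and lay at 247, 378 and 510 CPM in libraries 2, 3 and 7. Marco, a scavenger receptor for particles and bacteria, ranged from 174 CPM in library 7 to 356 CPM in library 3. Ear1, a ribonuclease of the eosinophil-associated family, followed the order of Fabp1 with 1129 CPM in library 3, 709 in library 1, 441 in library 2 and 301 in library 7.

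Upstream sequences are shown for Fabp1, a marker gene whose window held the motif described here, and for the paralogs Ear1 and Ear2, whose windows were nearly identical. They were taken from RefSeq on GRCm38.p6 and read 5′ to 3′ toward the start of transcription. The Fabp1 sequence covers chr6:71199629-71199826 on the plus strand and stops where the first exon of GENCODE begins. Its capitals mark a match to AGGNCANAGGNCA, a hormone response element repeated after a gap of 1 base, the type of site known for PPAR-gamma paired with RXR. The match lies on the opposite strand, 67 to 55 bases before the RefSeq start. The Ear1 window is chr14:43819640-43819889 on the minus strand and the Ear2 window chr14:44102404-44102653 on the plus strand, and neither holds the motif or a GENCODE exon.
Fabp1: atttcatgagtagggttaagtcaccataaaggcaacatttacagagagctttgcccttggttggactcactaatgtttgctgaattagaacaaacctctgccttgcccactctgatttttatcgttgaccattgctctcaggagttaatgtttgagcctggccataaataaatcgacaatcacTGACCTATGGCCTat
Ear1: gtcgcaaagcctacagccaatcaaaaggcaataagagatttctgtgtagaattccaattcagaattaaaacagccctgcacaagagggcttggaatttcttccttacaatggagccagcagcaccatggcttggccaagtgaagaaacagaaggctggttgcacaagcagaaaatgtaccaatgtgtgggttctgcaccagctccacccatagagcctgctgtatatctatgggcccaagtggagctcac
Ear2: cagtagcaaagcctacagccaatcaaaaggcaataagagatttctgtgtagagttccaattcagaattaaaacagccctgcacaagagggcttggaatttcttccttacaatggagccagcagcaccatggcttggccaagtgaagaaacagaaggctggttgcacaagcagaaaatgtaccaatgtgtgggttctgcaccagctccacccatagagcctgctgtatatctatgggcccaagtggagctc
Searched on both strands, the motif occurred in 111 of 32851 RefSeq windows of 250 bases (0.338%). Of 44 genes searched (the markers, the identity list and the genes most above the other libraries in library 3), 37 had a window and 3 held the motif, namely Fabp1, Ccl6 and F7. A match describes letters and not binding. The Ear1 and Ear2 windows matched over 246 of 250 bases, with an unbroken run of 197. Their transcripts were less alike: of the 623 stretches of 91 bases in the 713-base Ear1 transcript, 9 occurred in Ear2, whereas 41.7% of its 30-base stretches did. Counts of Ear1 and Ear2 could have been split between the paralogs by the authors' counting and are uncertain to that degree.

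Genes outside the choice divided into those that were level across libraries and those that were not. Lpl, the lipase that frees fatty acids from triglycerides, was found at 2868, 3569, 3345 and 2901 CPM in libraries 1, 2, 3 and 7. Pparg, which encodes PPAR-gamma (chr6:115360951-115490399), was found at 90.6, 93.5, 125 and 127 CPM, and Itgax at 484, 425, 383 and 365 CPM. These 3 genes differed by less than 1.5-fold between any 2 libraries. Siglecf (chr7:43351341-43359531) was not level, with 126 CPM (111 to 142) in library 1, 60.9 (55.2 to 67.1) in library 2, 189 (180 to 199) in library 3 and 42.2 (35.4 to 49.9) in library 7. Its order, with library 3 highest and library 7 lowest, was the order also seen for Ear1. Ear2 (chr14:44102654-44103534) was closer to level at 2658, 1890, 2695 and 1600 CPM. Chil3, a secreted chitinase-like protein that forms crystals in inflamed lungs (chr3:106147554-106167564), had a pooled level of 22900 CPM. It took 61700 CPM in library 1, 33370 in library 7, 16430 in library 2 and 14840 in library 3. In library 1 it thus made up 4.16 times the share it had in library 3, and it was the most abundant of the 8 genes in every library.

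**Figure D3:**
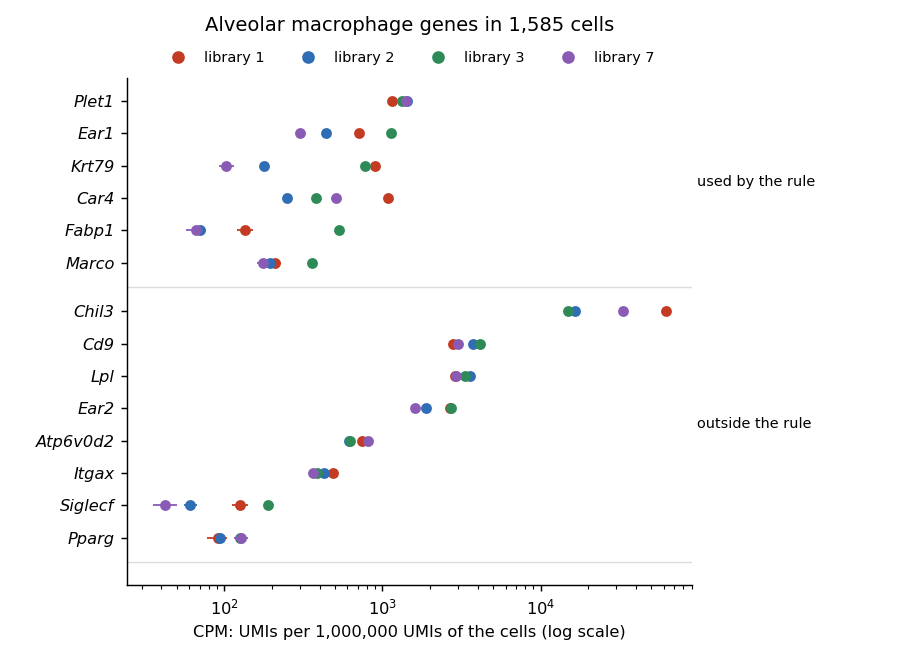
Levels in CPM on a log axis for the 6 marker genes of the choice and 8 alveolar macrophage genes outside it, in the 1585 macrophage members of each library, with exact 95% Poisson intervals as bars where wider than the point. Plet1, Lpl, Itgax and Pparg lie close together, and Fabp1, Ear1 and Siglecf are highest in library 3, whereas Chil3 is highest in library 1.

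The members were set against 2 neighbouring groups of cells of the same libraries: 2136 Mmp12/Gpnmb cells, with at least 5 UMIs of the excluding set of 3 genes that includes both, and 629 C1q cells, with at least 5 UMIs of the C1q genes. Genes with at least 20 CPM in either group were compared within each library. A gene counted as different when it was at least 2-fold apart in the same direction in all 4 libraries. A gene under 20 CPM in the members entered through the other group alone, and could be called lower but not higher. The reverse held for a gene under 20 CPM in the other group. Calls of such genes partly restate this limit. Over all 1767 cells, 194 of 6541 genes (2.97%) were higher than in Mmp12/Gpnmb cells and 11 (0.168%) were lower. The 194 genes were led by Sec14l3, Ccdc153, Tmem212 and Dynlrb2, which belong to ciliated airway cells. In the 1585 macrophage members, 0 of 6280 genes (0.0%) were higher and 14 (0.223%) were lower, of which 3 were the excluding genes themselves. All 194 higher calls were thus absent once the 182 cells were set aside, and few genes differed between the macrophage members and the Mmp12/Gpnmb cells at this fold. The count of lower genes depended on how the cells were chosen: it was 139 in place of 11 when both groups were chosen on counts thinned to 1500 UMIs, which selected 1469 cells, with levels still taken from the full counts.

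The 11 genes outside the choice that were lower than in Mmp12/Gpnmb cells included several chemokines. Ccl17, which attracts T helper cells through CCR4, was found at 24.4 CPM against 340 CPM in Mmp12/Gpnmb cells. Ccl24, a chemokine that draws eosinophils, was found at 0.382 against 137 CPM, and Ccl7, which draws monocytes, at 1.10 against 40.0 CPM. The remaining 8 were C3ar1 (the receptor of the complement fragment C3a, 1.91 against 26.6 CPM), Rnase2a, Il7r, Slamf7, H2-M2, Syngr1, AA467197 and Slc6a8. Syngr1 had 2 and 4 UMIs in libraries 1 and 3 of the members, so its folds there rest on few counts. Of the 36 chemokines and cytokines listed, 26 were abundant enough for this comparison, 3 were lower and 0 were higher. Of the 3, Ccl7 and Ccl24 lay under 20 CPM in the members and entered through Mmp12/Gpnmb cells alone. So did C3ar1, Rnase2a, Il7r, Slamf7, H2-M2 and Slc6a8. The identity list of 30 genes gave 28 genes for comparison, of which 0 were called in either direction. Its median log2 difference was -0.20 over all 1767 cells, beside 0.05 over all genes, and 0.14 beside 0.07 in the macrophage members, which had been kept by 8 genes of this list, so its sign follows that choice. Siglecf, 1 of those 8, was 119 CPM in the members against 60.0 CPM in Mmp12/Gpnmb cells, and Cidec, a lipid droplet protein, 207 against 68.9 CPM, without a 2-fold gap in every library. Library composition entered these pooled levels, since 123 of the 2136 Mmp12/Gpnmb cells but 672 of the 1585 members came from library 3.

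Against C1q cells the members differed by many more genes. Over all 1767 cells, 469 of 6925 genes (6.77%) were higher and 380 (5.49%) lower, and in the macrophage members 422 (6.27%) were higher and 458 (6.81%) lower of 6728. Of the identity list, 20 of 28 genes were higher and 0 lower, with a median log2 difference of 3.34 beside 0.21 over all genes. The macrophage members had been kept by 8 of these genes, so 7 of the 20 calls come from genes used for the split and are not independent of it. Of the other 20 genes of the list compared, 13 were higher and 0 lower. Of the 13, Cidec, Slc39a2, Ctsk, Net1, Mgll, Wfdc21 and Olr1 lay under 20 CPM in C1q cells. They entered through the members alone and could be called higher but not lower. Over all 1767 cells, which those 8 genes did not choose, 19 of 28 genes of the list were higher and 1 lower. The median log2 difference there was 3.11. Among the genes of the split, Pparg was found at 112 against 11.8 CPM, Atp6v0d2, a proton pump subunit, at 662 against 27.1 CPM, and Siglecf at 119 against 2.32 CPM. Wfdc21, a whey acidic protein family member of the list that had no part in the 8-gene limit, was found at 717 against 10.1 CPM. Genes outside the list were also higher in every library, such as Kcnn3, a potassium channel, at 111 against 2.01 CPM. Fpr1, the receptor of bacterial formyl peptides, was found at 161 against 4.18 CPM, and Klhdc4 at 513 against 25.4 CPM. Kcnn3 and Fpr1 also lay under 20 CPM in C1q cells and entered through the members alone.

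Genes lower in the members than in C1q cells were led by chemokines and by genes of tissue macrophages. Ccl8 was found at 0.907 against 1613 CPM, and Retnla, a secreted product of alternative activation, at 5.73 against 3961 CPM. Apoe, the lipid carrier, was found at 126 against 15560 CPM, and the fractalkine receptor Cx3cr1 at 6.50 against 554 CPM. Maf, a transcription factor that restrains self-renewal in macrophages, was found at 5.21 against 438 CPM. Ccl8, Retnla, Cx3cr1 and Maf lay under 20 CPM in the members and entered through C1q cells alone. Of 30 transcription factors compared, 6 were higher and 5 lower. Pparg, a gene of the split, was 1 of the 6. Of the other 29 factors, 5 were higher (Bhlhe41, Rxra, Tfec, Xbp1 and Runx1) and 5 lower, among them Maf, Egr1, Atf3 and Runx3. Their median log2 difference was 0.26, beside 0.21 over all genes, of which 6.27% were higher and 6.81% lower. Bhlhe41, which supports proliferation of alveolar macrophages, was found at 166 against 16.6 CPM. It lay under 20 CPM in C1q cells and entered through the members alone.

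Receptors for growth factors held few genes that differed from C1q cells. Csf2rb, the signalling chain of the GM-CSF receptor, was found at 382 CPM in the members against 124 CPM in C1q cells, and Csf1r, the M-CSF receptor, at 127 against 825 CPM. Of the 16 genes of the list compared, which include the ligand Tgfb1, 2 were higher (Csf2rb and Il17ra) and 1 lower (Csf1r), near the 6.27 and 6.81% of all genes, with a median log2 difference of -0.03. The TGF-beta receptors Tgfbr1 and Tgfbr2 were found at 186 and 229 CPM, beside 201 and 230 CPM in C1q cells. In the members, Csf2rb was near level across libraries at 350, 359, 378 and 458 CPM in libraries 1, 2, 3 and 7.

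The other lists are given without the genes of the split, because the macrophage members had been kept by the values of those genes. Over all genes compared with C1q cells, 6.27% were higher and 6.81% lower, with a median log2 difference of 0.21. Lipid handling without Lpl had 8 of 27 genes higher than in C1q cells and 2 lower, with a median log2 difference of 0.95. Abcg1, which exports cholesterol, was found at 1233 against 93.4 CPM and Plin2, which coats lipid droplets, at 764 against 246 CPM. Those lower were Apoe and Pltp, both of which serve lipoproteins outside the cell. MHC class II genes and their partners went the opposite way, with 0 of 7 higher and 5 lower and a median log2 difference of -4.15, and the costimulatory genes Cd86 and Cd40 were lower too. Cd74, the invariant chain that escorts class II molecules, was found at 991 CPM in the members against 18420 CPM in C1q cells. Immediate early and heat shock genes had 10 of 20 lower and 0 higher than in C1q cells, Egr1 at 90.98 against 714 CPM among them. Chemokines and cytokines had 12 of 30 lower and 2 higher, the latter being Ccl6 (5431 against 1014 CPM) and Il18 (328 against 31.1 CPM). Of the 12, Ccl2, Ccl4, Ccl7, Ccl8, Ccl12, Ccl24, Il10, Tnfsf9 and Pf4 lay under 20 CPM in the members and entered through C1q cells alone. Scavenger and phagocytic receptors without Siglecf and Itgax were mixed, with 4 of 30 higher, such as Mertk (219 against 66.1 CPM), which takes up dying cells, and 8 lower, such as the lipopolysaccharide co-receptor Cd14 (196 against 882 CPM). Matrix proteases and inhibitors were mixed too, with 3 of 15 higher (Mmp8, Mmp19 and Serpinb1a) and 4 lower (Mmp9, Mmp14, Timp2 and Cst3). Alternative activation genes without Chil3 had 4 of 17 higher, Spp1 (1541 against 111 CPM) among them, and 4 lower, Retnla and Ccl24 among them. Cell cycle genes had 0 of 17 called, and interferon-stimulated genes had 0 of 11 higher and 1 lower, Irf7. Lysosomal genes without Atp6v0d2 had 1 of 28 higher and 2 lower, and iron and redox genes 1 of 19 higher and 3 lower.

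Cathepsins, the lysosomal proteases that include the study's Cathepsin L, were abundant in the members. Summed over 14 genes they took 13830, 14390, 9435 and 13730 CPM in libraries 1, 2, 3 and 7, so that library 3 was lowest. Ctsd had the largest count at 4974 CPM, followed by Ctss at 3025 CPM and Ctsb at 947 CPM. Ctsl (chr13:64359337-64370890 on the minus strand) was found at 472 CPM (443 to 503) in library 1, 356 (342 to 371) in library 2, 216 (207 to 226) in library 3 and 341 (321 to 362) in library 7. Library 1 lay above and library 3 below the other libraries beyond their counting intervals, and the intervals of libraries 2 and 7 overlapped. After thinning to 1500 UMIs, 47.3, 36.7, 25.04 and 39.0% of members in libraries 1, 2, 3 and 7 had a Ctsl UMI, against 3.60% of B cells. In Mmp12/Gpnmb cells Ctsl stood at 660, 559, 289 and 1445 CPM in those libraries, above the members in each, and in C1q cells at 197, 222, 180 and 281 CPM, below the members in each. Ctsl did not reach 2-fold in every library in either comparison. Against C1q cells, 2 of 11 cathepsins were higher and 0 lower: Ctsd (4974 against 1017 CPM) and Ctsk (346 against 16.0 CPM). Over all genes, 6.27% were higher and 6.81% lower. Ctsk lay under 20 CPM in C1q cells and entered through the members alone. Ctsk, a collagen-degrading cathepsin, was highest in library 1 at 815 CPM and lay between 274 and 325 CPM in the other libraries. The median log2 difference of the cathepsins was 0.11 against C1q cells and -0.33 against Mmp12/Gpnmb cells, beside 0.21 and 0.07 over all genes. Ctsb stood at 1085, 1098, 737 and 1124 CPM in libraries 1, 2, 3 and 7 of the members. C1q cells had 2382, 1964, 1568 and 2895 CPM of Ctsb, above the members in each, without reaching 2-fold in every library. Ctsh was below C1q cells in each library as well.

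**Figure D4:**
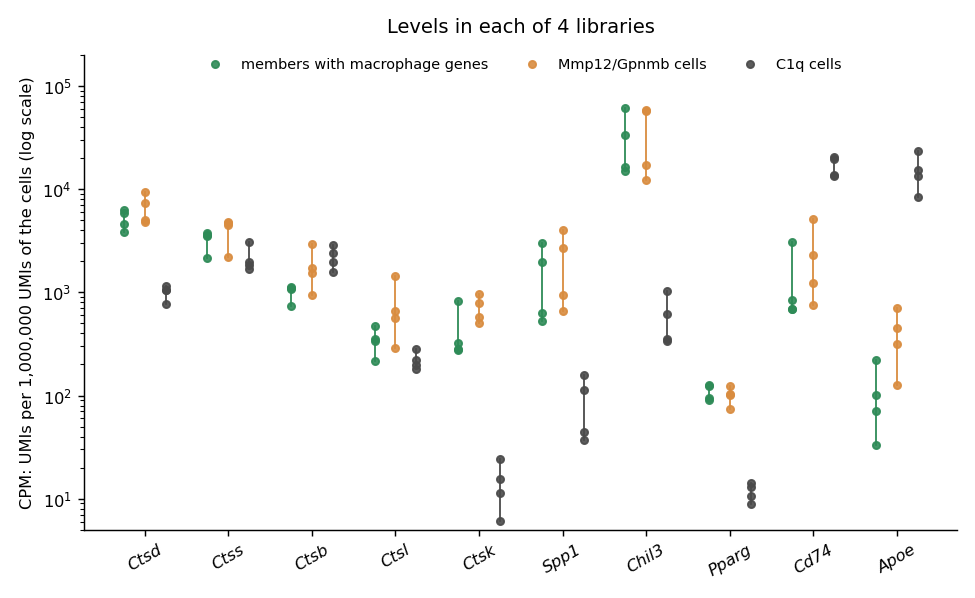
Levels in CPM on a log axis for 10 genes in 3 groups of cells, with 1 point per library (1, 2, 3 and 7) and a line from the lowest to the highest. The macrophage members overlap the Mmp12/Gpnmb cells in every gene shown. They lie above C1q cells for Ctsd, Ctsk, Spp1 and for Chil3 and Pparg, genes by which the members were kept. They lie below C1q cells for Ctsb, Cd74 and Apoe.

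Between the 4 libraries, 1155 of 7165 genes (16.1%) differed by at least 2-fold from the highest to the lowest library over all 1767 cells, and 831 of 6672 (12.5%) did so in the macrophage members. The median gene of the macrophage members differed by 1.40-fold. The highest value of those 831 genes was in library 1 for 179 genes, library 2 for 190, library 3 for 294 and library 7 for 168. Most lists exceeded the 12.5% background, so the genes that follow are examples and not a separate class. All 7 class II genes compared differed by at least 2-fold, as did the costimulatory genes Cd86 and Cd80, 20 of 21 chemokines and cytokines and 7 of 9 interferon-stimulated genes. Lists nearer to the background were transcription factors (5 of 28), the growth factor receptor list (2 of 16) and lysosomal genes (5 of 29).

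Library 1 was highest for MHC class II and interferon-stimulated genes, and the examples given were highest there in Mmp12/Gpnmb cells as well. Cd74 stood at 3071 CPM in library 1 and at 692, 837 and 687 CPM in libraries 2, 3 and 7, and H2-Aa, a class II alpha chain, at 1419 against 288, 332 and 288 CPM. Library 1 was highest for all 7 class II genes, whereas Cd86 was highest in library 2 and Cd80 in library 3. The top 5 cells held 44.3 and 42.9% of the Cd74 UMIs in libraries 2 and 7 but 19.1 and 12.5% in libraries 1 and 3, so the levels of libraries 2 and 7 rested in part on few cells. In Mmp12/Gpnmb cells Cd74 stood at 5122, 752, 2291 and 1218 CPM in libraries 1, 2, 3 and 7. All 7 interferon-stimulated genes that differed were highest there, Gbp2, an interferon-induced GTPase, at 204 CPM against 20.4, 18.5 and 18.0 CPM. A UMI of Gbp2 was found in 62 of the 196 members of library 1, and the top 5 cells held 48.5% of its 427 UMIs. Cxcl9, an attractant of T cells induced by interferon-gamma, stood at 343 CPM against 1.34, 6.07 and 0.931 CPM. Cxcl9 too rested on few cells, since 32 of the 196 members of library 1 had a Cxcl9 UMI and the top 5 cells held 65.2% of its 719 UMIs. Fbp1, an enzyme of gluconeogenesis, had 229 UMIs in library 1 (109 CPM), 0 in library 2, 2 in library 3 and 32 in library 7. In Mmp12/Gpnmb cells of library 1, Gbp2 stood at 138, Cxcl9 at 131 and Fbp1 at 261 CPM, each again highest in that library. Mmp12, which the choice limited to fewer than 5 UMIs per cell, still reached 103 CPM in library 1 against 8.64, 6.18 and 12.1 CPM. The median share of mitochondrial UMIs was 6.53% in the members of library 1 and 4.26, 4.47 and 4.37% in libraries 2, 3 and 7. Among the 48, 351, 421 and 136 members with at most 5% mitochondrial UMIs, library 1 was again highest for these genes, with Cd74 at 3088 CPM, Gbp2 at 226, Cxcl9 at 242 and Mmp12 at 102 CPM. Fbp1 fell to 24.8 CPM in library 1 on 11 UMIs, against 10.2 CPM in library 7.

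Library 3 was highest for several genes, some of them also highest there in neighbouring cells. Relative to all other kept cells of the 4 libraries pooled, the members had ratios of 16.8 for Gal, 14.9 for Cpne5, 13.7 for Acaa1b and 12.7 for Cidec. All 4 were highest in library 3, which held 672 of the 1585 members and so weighed on these pooled ratios. Over all selected cells, leaving out library 3 took Acaa1b from 82.8 to 24.0 CPM and Cidec from 173 to 76.3 CPM. Gal, which encodes the neuropeptide galanin, stood at 28.6, 16.2, 135 and 18.9 CPM in libraries 1, 2, 3 and 7, and Acaa1b, a thiolase of peroxisomal fatty acid oxidation, at 26.7, 36.0, 192 and 21.4 CPM. Cidec stood at 145, 90.9, 356 and 78.5 CPM. Mmp12/Gpnmb cells of library 3 were not far below the members, with Gal at 112 CPM, Acaa1b at 159, Cpne5 at 135 against 191 and Cidec at 269 CPM, and in them too all 4 genes were highest in library 3. The values of the members were spread over the cells: 422 of 672 members of library 3 had a Gal UMI, and the top 5 cells held 6.47% of them. After thinning to 1500 UMIs the share was 14.7%, against 0.599% of B cells in that library. Tnf, the inflammatory cytokine, stood at 137 CPM in library 3 against 19.6, 35.9 and 16.1 CPM, with a UMI in 15.15% of its thinned members and in 0 of 501 thinned B cells (exact 95% interval up to 0.734%). Epcam, an adhesion molecule of epithelium, stood at 42.9, 8.04, 128 and 1.86 CPM, and in library 3 a UMI was found in 16.1% of thinned members against 0.798% of thinned B cells. In Mmp12/Gpnmb cells, Epcam was also highest in library 3 at 90.0 CPM, beside 40.8, 3.22 and 4.66 CPM.

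Library 3 was lowest for another set of genes. Igf1, a growth factor, stood at 17.7 CPM in library 3 against 125, 86.7 and 75.7 CPM in libraries 1, 2 and 7, and Trem2, a lipid-sensing receptor, at 50.9 CPM against 121, 193 and 171 CPM. Cd63, a lysosomal tetraspanin, and Ccl9, a chemokine, were lowest there as well, at 142 and 58.3 CPM. Psap, the precursor of sphingolipid activators, stood at 2666 CPM in library 3 and between 5636 and 6309 CPM elsewhere.

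Libraries 2 and 7 had higher values of Spp1 and of 3 iron and heme genes, Hmox1, Ftl1 and Slc40a1, than libraries 1 and 3. Spp1, which encodes osteopontin, stood at 623, 2978, 527 and 1945 CPM in libraries 1, 2, 3 and 7, and Hmox1, the heme oxygenase, at 113, 536, 125 and 431 CPM. Hmox1 rested in part on few cells, since the top 5 cells held 58.7% of its 1388 UMIs in library 7 and 38.6% of its 3599 in library 2. Ftl1, the ferritin light chain, stood at 7526, 17470, 8438 and 16750 CPM. The iron exporter Slc40a1 stood at 2.39, 44.7, 5.73 and 27.3 CPM, on 5 UMIs in library 1. Of the 17 iron and redox genes compared, 8 differed by at least 2-fold and 6 of them were highest in library 2, Prdx1, a peroxiredoxin, at 2609 CPM among them, whereas the metallothioneins Mt1 and Mt2 were highest in library 3. Of 18 early response and heat shock genes compared, 9 differed by at least 2-fold, with 4 highest in library 7, 4 in library 3 (Egr1, Ier2, Nr4a1 and Nfkbia) and 1 in library 2. In library 7, Fos stood at 1269 CPM against 601, 855 and 528 CPM and Hspa8 at 1856 against 1190, 904 and 874 CPM in libraries 1, 2 and 3.

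**Figure D5:**
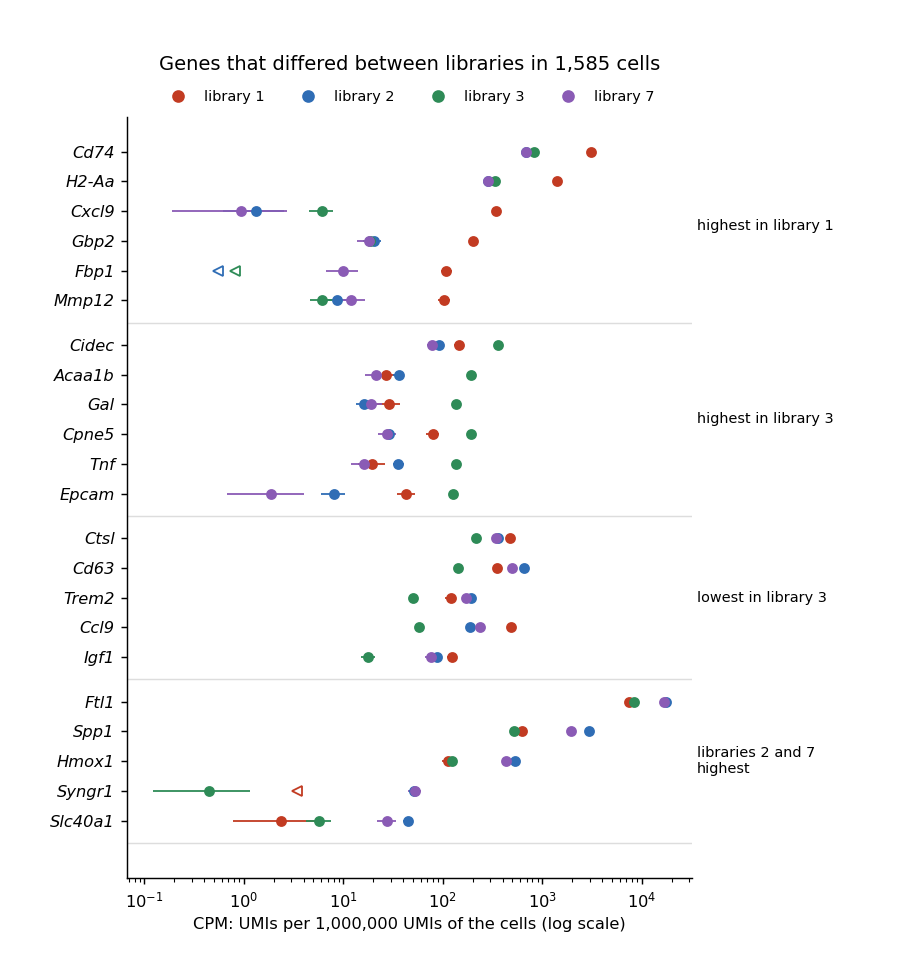
Levels in CPM on a log axis for genes that differed between libraries, in the 1585 macrophage members, with exact 95% Poisson intervals. Open triangles mark values from fewer than 3 UMIs, placed at the upper bound, and each block names the library or libraries at its extreme, such as Cxcl9 at 343 CPM in library 1 and Gal at 135 CPM in library 3.

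Some abundant genes in the macrophage members are markers of other cells. Immunoglobulin transcripts (Igkc, Igha, Ighg1 and Jchain) rested on 3 cells with at least 100 such UMIs, 1 each in libraries 1, 3 and 7, which held 97.6% of the 40851 UMIs, and without them the level was 47.1 CPM. In library 2, a single cell held 14880 of the 18095 Scgb1a1 UMIs. Scgb1a1 was otherwise spread thinly, with a UMI in 504 of the 515 members of library 2 and 658 of the 672 of library 3. After thinning, 52.9 and 53.0% of members had a Scgb1a1 UMI in those libraries, below the 65.6 and 74.9% of B cells, which should lack the gene, so these shares are not read as expression. Sftpc, the surfactant protein of type 2 cells, had 90.8 and 93.5% of its UMIs in 5 cells in libraries 2 and 3. The 8 epithelial genes together took 388, 3739, 1931 and 184 CPM in libraries 1, 2, 3 and 7, and their part in the differences between libraries was not tested.

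Genes that define other cell types were summed by list. Epx, the eosinophil peroxidase, had 0 UMIs in the 1585 members, and 6 eosinophil genes together took 4.06 CPM, with Ear6 the most abundant at 3.06 CPM. T and NK cell genes took 20.5 CPM over 6 genes and dendritic cell genes 19.3 CPM. Neutrophil genes took 341 CPM over 6 genes, S100a8 the most abundant at 134 CPM. S100a9 had 75.1, 80.7 and 87.8% of its UMIs in 5 cells in libraries 2, 3 and 7. Monocyte genes took 301 CPM, of which Nr4a1, also an early response gene, made up 194 CPM. Interstitial macrophage genes took 173 CPM, led by Apoe at 126 CPM, and erythroid genes 2.63 CPM with Alas2 at 0. B cell genes took 186 CPM, of which Jchain made up 156 CPM. Endothelial genes took 13.7 CPM, with Cdh5 at 0 by the choice. Fibroblast and muscle genes took 6.68, 300, 175 and 65.8 CPM in libraries 1, 2, 3 and 7, so that library 1 was far below library 2, and their part in the differences between libraries was not tested.

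Cycling was read from 20 cell cycle genes, and a cell was counted with at least 2 of their UMIs after thinning to 1500. In the macrophage members 245 of 1543 cells (15.9%, 14.1 to 17.8%) were counted, against 7.74% (6.44 to 9.21%) of B cells, 12.5% (11.1 to 14.0%) of Mmp12/Gpnmb cells and 10.3% (7.99 to 13.1%) of C1q cells. The order of members and Mmp12/Gpnmb cells turned within libraries: the latter were at 31.7% (23.6 to 40.7%) in library 3, 13.1% in library 2, 12.6% in library 1 and 8.54% in library 7. By library the share of members was 17.2% in library 1, 11.96% in library 2, 19.5% in library 3 and 13.0% in library 7. Mmp12/Gpnmb cells were thus above the members in libraries 2 and 3 and below them in libraries 1 and 7, with intervals that did not meet in library 3 alone. Among the members, the intervals of library 3 (16.5 to 22.7%) and library 2 (9.27 to 15.1%) did not meet, whereas those of libraries 1 and 7 overlapped both. After thinning to 3000 UMIs, library 3 (31.25 to 38.85%) met neither library 2 (16.67 to 23.94%) nor library 7 (17.45 to 29.78%). Library 1 (19.48 to 33.15%) overlapped all of these. Summed over the 20 genes the level was 804, 830, 1116 and 736 CPM in libraries 1, 2, 3 and 7. Of 18 cell cycle genes compared, 4 differed by at least 2-fold between libraries (Ccnb2, Nusap1, Mcm2 and Tyms), and all 4 were highest in library 3. Mki67, the proliferation antigen, stood at 39.1, 54.2, 69.7 and 67.0 CPM.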

How the data were processed

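The authors' deposited matrix held UMI counts per gene and cell, made from Chromium 3' libraries with Cell Ranger 3.1.0 (per the file header) and, per the submitters' processing notes, STAR on mm10. The study's methods state that reads were down-sampled between libraries and aggregated. It held 37344 barcodes, 31053 genes and 7 libraries. The deposited gene identifiers, symbols and barcodes (values of other kinds) named genes and library numbers. Of the identifiers, 31011 matched GENCODE M21.

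UMIs were summed over the cells of a library and scaled to 1000000 UMIs (CPM), counts under 3 being raised to 3 for folds. Shares have Clopper-Pearson and levels exact Poisson 95% intervals. The members and gene lists were chosen with earlier results of these data known, and the limit of 50 per 10000 was set after seeing the data. Named genes were those of the lists with the highest CPM or largest fold, and the leading genes by level, ratio, fold or spread. Doublets were marked, not removed (Scrublet in scanpy 1.11.5). B cells had at least 5 UMIs of Cd79a, Cd79b and Ms4a1. The scripts used Python 3.11.15, numpy 2.4.6, scipy 1.17.1, pandas 2.3.3 and matplotlib 3.10.9, and were tested on simulated data. Left-out cells and libraries, other limits and thinning were tried as alternatives. Some genes, 1 of them in the excluding set, are not reported here.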

Additional observations from a re-analysis of the deposited data

How the results depend on the processing

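No paired analysis was possible because the libraries carry no group and no test was run. The share of selected cells (8.47%) was 8.91% at a mitochondrial limit of 5%, 9.26 and 7.40% with at least 3 and 10 marker UMIs, 6.48% with exclusion at 3 UMIs, 9.90% without cells holding another class (14.9% in library 2 and 11.1% in library 7, from 7.41 and 7.60%), 7.68% when cells were chosen on counts thinned to 1500 UMIs (levels from full counts) and 7.60% for the macrophage members, and 6.73 to 9.50% with 1 library left out (lowest without library 3). Higher than Mmp12/Gpnmb cells (194 genes) were 39 genes at the 5% limit, 57 with at least 10 marker UMIs, 47 with the study's UMI and gene limits, 3 without cells holding another class, 10 chosen on thinned counts, 0 in the macrophage members, and 39 and 658 at 50 and 5 CPM. Lower (11 genes) were 27 without other classes, 139 chosen on thinned counts and 8 to 21 with 1 library left out (21 without library 3). Higher than C1q cells (469 genes) were 309 at the 5% limit, 261 without other classes, 241 and 704 at 50 and 5 CPM and 299 at 3-fold, and lower (380 genes) were 233 at 3-fold. Between libraries (1155 genes), 1815 differed at the 5% limit, 1867 without other classes, 562 and 2711 at 50 and 5 CPM, 459 at 3-fold, and 674 to 1053 with 1 library left out (751, 674 and 745 without libraries 1, 3 and 7). The cycling share of the selected cells was 15.8% at 1500 UMIs (273 of 1723 cells) and 27.0% at 3000 UMIs (449 of 1662 cells). The remaining selected cells were left out at each depth, so the 2 shares are over different cells. The 7.68% is likewise over the 19125 cells kept after thinning. The causes were not tested, except that fewer libraries or genes enter some settings and that the 0 follows from leaving out the 182 cells.

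Of 28 pooled levels followed, 17 stayed within 1.5-fold when chosen on thinned counts and 19 without cells holding another class, a setting that kept 436 cells. The mitochondrial limit of 5% lowered Cxcl9, Fbp1 and Mmp12 by more than that and raised Igkc. Leaving out library 1 lowered Gbp2, Cxcl9, Fbp1 and Mmp12 by more than that, library 2 Spp1, Hmox1 and Syngr1, library 3 Fabp1, Ear1, Krt79, Siglecf, Cidec and Acaa1b, and library 7 Igkc. Without library 3, Cxcl9, Fbp1 and Syngr1 were higher by more than that. The highest library of the 28 levels stayed the same for 20 on thinned counts, 22 with the study's UMI and gene limits and 23 in the macrophage members. It was the same for 24 to 28 levels in the other settings that kept all 4 libraries. With 1 mouse per group and unnamed libraries, no value here separates a condition from a library.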

Other observations

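Some further genes differed between libraries in the macrophage members. Krt19, a keratin of simple epithelia, stood at 201, 75.1, 485 and 80.3 CPM in libraries 1, 2, 3 and 7. Cd2, an adhesion receptor best known from T cells, stood at 189, 86.8, 222 and 84.7 CPM, with libraries 1 and 3 above the others as for Krt19. C5ar1, the receptor of the complement fragment C5a, had another order, with 73.4 CPM in library 1 and 245 to 263 CPM in the others. AA467197, a small mitochondrial protein gene, stood at 705 CPM in library 1 against 46.5, 11.7 and 64.5 CPM. Ifitm3, a membrane protein that blocks viral entry, stood at 5.89 CPM in library 7 against 69.6, 109 and 79.3 CPM, but the top 5 cells held 72.6, 42.5 and 40.8% of its UMIs in libraries 1, 2 and 3. These genes were chosen after their values were seen, and no cause was tested.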
